A study of Mus musculus with 12 samples.

Results

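The genes described here are 10 endothelial genes tied to apelin and to vessel sprouting: Apln, Aplnr, Esm1, Plvap, Rgcc, Ramp2, Ramp3, Adgrl4, Emcn and Cd34. They were chosen by gene name out of 54232 genes in the count table, and their RNA was measured in 12 tumors, 3 per treatment. The tumors were xenografts of SVR cells, a mouse endothelial line transformed with an activated Ras oncogene that grows as an angiosarcoma, in young adult nude mice, and the strain label is C57BL/6. Control mice received vehicle, a mixture of Cremophor, PEG 400 and Tween. The other mice received trametinib, an inhibitor of the kinase MEK, at 1 mg/kg, cediranib, an inhibitor of the VEGF receptors, at 3 mg/kg, or both drugs. Gavage was daily and began 3 to 7 days after implantation. By the labels it went on until a tumor ulcerated or outgrew its size limit, while the study also describes an experiment with a single harvest time. Which of these gave the tumors is not stated, so time on drug may differ between groups. SVR is a single line, and whether the 3 tumors of a group came from 3 mice is not labelled, so the spread between them may be partly technical.

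Apelin, the peptide made from Apln, signals through a G protein-coupled receptor encoded by Aplnr and is produced by endothelial tip cells at the front of growing vessels. Esm1 and Plvap, a secreted proteoglycan and the protein of the diaphragms across endothelial fenestrae, are also typical of growing or permeable vessels. Adrenomedullin acts on endothelium through the receptor encoded by Calcrl, which needs an accessory protein from Ramp2 or Ramp3 to reach the cell surface. Emcn and Cd34 encode sialomucins of the endothelial surface, Adgrl4 encodes an adhesion G protein-coupled receptor of endothelium, and Rgcc encodes a regulator of the cell cycle that endothelial cells also express. Cd34 is made as well by blood progenitors, fibroblasts and stem cells of the hair follicle bulge.

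Whole tumors were lysed, so RNA from tumor cells, host vessels and neighbouring mouse tissue was read together, and fewer cells of a type cannot be told apart from less RNA per cell. Libraries held 9478865 to 11666094 counts, and 1 count corresponded to 0.0836 to 0.116 CPM (counts scaled to the library total with TMM factors). Of 54232 genes 12897 passed a filter on low counts, among them 7 of the 10 genes described here. A gene was called changed where edgeR's quasi-likelihood test gave an FDR under 0.05 and the log2 fold change was 1.5 or more in size. Dusp6, a phosphatase induced by ERK downstream of MEK, was at 38.9 to 47.6 CPM in control, 1.98 to 4.53 CPM in trametinib, 41.3 to 43.5 CPM in cediranib and 10.2 to 13.9 CPM in combination treated tumors. Of 6 genes of MAPK output 5 were called lower with trametinib and 4 with the combination against control, and 2 were called higher in the combination than with trametinib alone. The 13 pan-endothelial markers that passed the filter averaged 3.45 to 4.67 log2 CPM in control, 2.20 to 2.67 in trametinib, 2.81 to 4.18 in cediranib and 1.53 to 2.40 in combination treated tumors. Several defining endothelial markers were close to 0, with Clec14a at 0 in 10 of 12 libraries and Icam2 at 0.202 CPM at most, while Cdh5 reached 120 CPM. Skeletal muscle RNA was high in control 2 and trametinib 2, where muscle actin (Acta1) stood at 4330 and 8297 CPM, and was next highest in trametinib 3, at 896 CPM. Epidermal markers averaged 2.89 to 3.38 log2 CPM in the 3 combination tumors and 2.72 and 2.80 in cediranib 1 and 3, against 1.33 at most in the other 7.

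The genes lie on 8 chromosomes in the GRCm38 coordinates of the count table. Apln (ENSMUSG00000037010) spans chrX:48025146-48034853 on the minus strand, in 3 exons. Aplnr (ENSMUSG00000044338) is a single exon at chr2:85136225-85139921 on the plus strand. Rgcc (ENSMUSG00000022018) lies at chr14:79288756-79301645, minus strand, and Cd34 (ENSMUSG00000016494) at chr1:194938819-194961279, plus strand. Ramp2 and Cd34 share exonic bases with a neighbour that has counts of its own. Ramp2 (chr11:101246028-101259546, plus strand) shares 1103 of its 3301 annotated bases with Vps25 on the same strand, and Cd34 shares 148 of 7290 bases with Gm16897, an antisense gene. Ramp3 shares 101 bases with a pseudogene on the other strand. How strand and reads on more than 1 gene were handled is not stated, so such reads cannot be assigned to a single gene.

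RefSeq promoter entries (GRCm38.p6) matched 7 of the 10 genes. The 250 bases before the start of Apln (chrX:48034854-48035103, minus strand) and Rgcc (chr14:79301636-79301885, minus strand) are shown because all 6 trametinib tumors stood apart from the other 6 in these genes. Those of Adgrl4 (chr3:151437632-151437881, plus strand) are shown because they hold matches to searched motifs. Both strands were searched for the ETS core CCGGAA, the AP-1 site TGANTCA and the HIF core ACGTG, and matches are in capitals.
Apln: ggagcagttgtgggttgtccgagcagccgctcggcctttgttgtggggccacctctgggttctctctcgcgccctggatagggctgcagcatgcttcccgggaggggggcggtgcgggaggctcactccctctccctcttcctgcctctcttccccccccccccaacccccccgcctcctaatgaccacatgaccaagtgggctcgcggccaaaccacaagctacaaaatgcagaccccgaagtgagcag
Rgcc: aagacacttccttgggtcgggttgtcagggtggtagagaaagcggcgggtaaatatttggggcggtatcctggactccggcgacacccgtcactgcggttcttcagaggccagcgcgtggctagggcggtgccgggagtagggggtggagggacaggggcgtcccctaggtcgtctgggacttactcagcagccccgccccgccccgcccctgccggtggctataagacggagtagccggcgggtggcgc
Adgrl4: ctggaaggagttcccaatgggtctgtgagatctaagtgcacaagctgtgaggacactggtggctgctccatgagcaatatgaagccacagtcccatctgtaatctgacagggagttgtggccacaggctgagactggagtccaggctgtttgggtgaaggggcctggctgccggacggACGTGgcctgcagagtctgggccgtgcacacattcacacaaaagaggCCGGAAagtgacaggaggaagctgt
Neither the Apln nor the Rgcc window held any of these motifs, which says only that these letters are not there. Adgrl4 held the ETS core 25 bases and the HIF core 72 bases before its start. Over 32851 promoter windows of this length, 12.03% held the ETS core, 6.75% the AP-1 site and 16.6% the HIF core. Of the other 4 genes with an entry, Ramp3 held 1 ETS core and Esm1, Emcn and Cd34 held none of the 3 motifs.

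Per kilobase of annotated length, Ramp2 stood highest of the 10 genes in control tumors, at 13.04 ± 1.91 CPM per kb (SD, n = 3), although part of its count cannot be separated from that of Vps25. Cd34 followed at 4.85 ± 0.144, and Apln at 1.61 ± 0.755 and Rgcc at 1.08 ± 0.560 came next, with ranges that overlapped each other. Plvap at 0.579 ± 0.475, Adgrl4 at 0.447 ± 0.356 and Aplnr at 0.347 ± 0.149 CPM per kb were neighbours whose ranges also overlapped. Esm1, Ramp3 and Emcn were lowest, at 0.188, 0.163 and 0.0364 CPM per kb. Counts of the apelin receptor, the fenestral diaphragm gene and the tip cell marker Esm1 were thus low in these libraries. Of genes with a control count, 42.3% stood lower than Aplnr, 48.8% lower than Plvap and 34.7% lower than Esm1. The libraries were made by probe capture, so levels of different genes depend on their probes as well. A low count therefore need not mean little RNA.

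**Figure D1:**
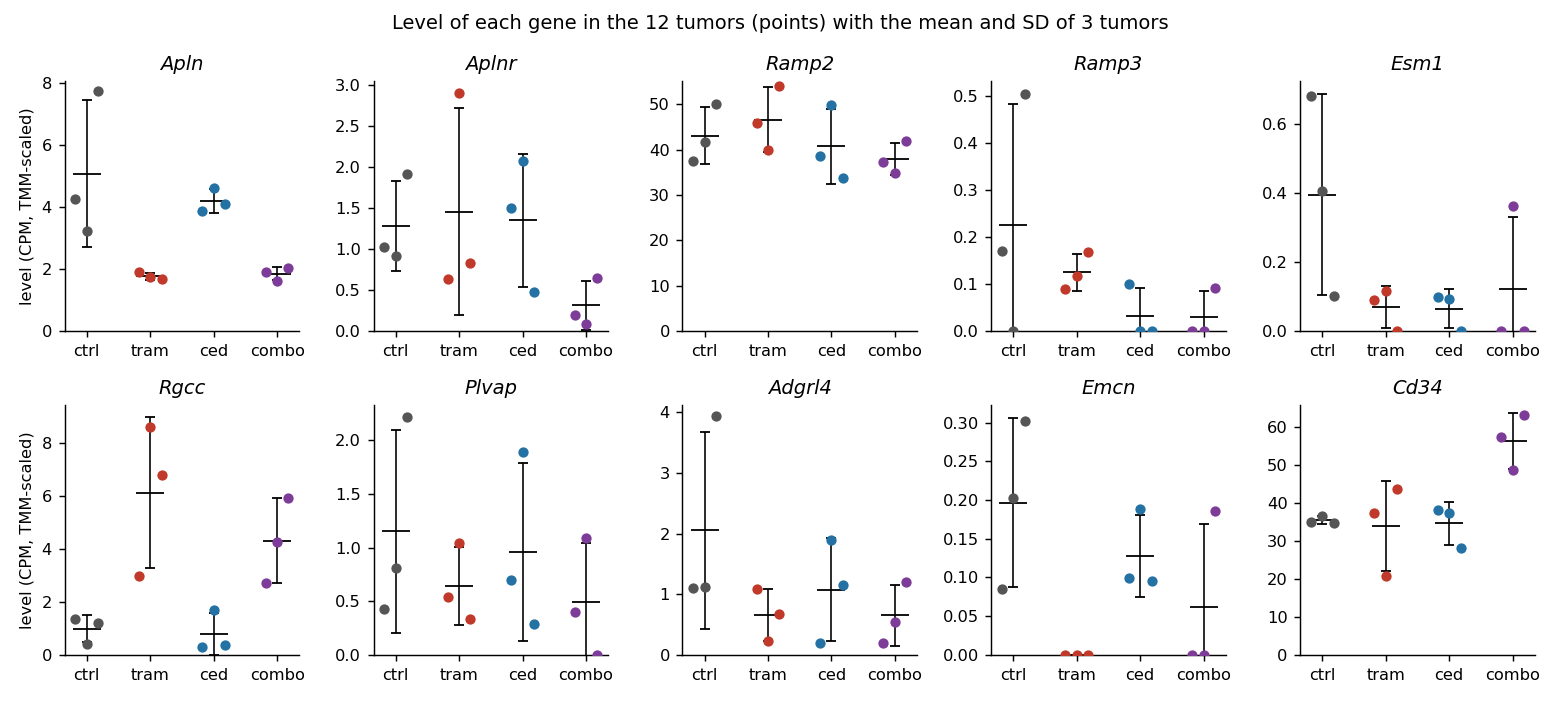
Level of each gene in CPM (TMM-scaled, linear axis from 0, a different range in each panel) in vehicle control (ctrl), trametinib (tram), cediranib (ced) and combination (combo) treated tumors. Points are tumors and bars the mean and SD of 3. Apln was lower and Rgcc higher in all 6 tumors given trametinib, alone or combined, than in the other 6, and Cd34 stood at 48.5 to 63.0 CPM in the combination.

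Apln fell with trametinib. It measured 4.25, 3.24 and 7.77 CPM in the control tumors and 1.90, 1.74 and 1.67 CPM in those given trametinib, so the groups did not overlap. The log2 fold change was -1.51 (SE 0.32, 95% interval -2.20 to -0.82, edgeR FDR 0.0152), a 2.85-fold lower level that lay just past the fold threshold. Cediranib treated tumors measured 3.89, 4.63 and 4.11 CPM, within the control range, with a log2 fold change of -0.27 (interval -0.92 to 0.38, edgeR FDR 0.999). Combination treated tumors measured 1.92, 1.63 and 2.04 CPM, below every control and cediranib tumor. Against control the log2 fold change was -1.44 (SE 0.32, edgeR FDR 0.0161), past the FDR but just short of the fold, and against cediranib it was -1.17 (SE 0.32, FDR 0.0446). Adding cediranib to trametinib gave a difference of 0.07 (interval -0.65 to 0.79), and the interaction of the drugs was 0.34 (interval -0.63 to 1.31, FDR 0.901). Taking the 6 tumors given trametinib together against the other 6, a comparison added after the values were seen, the log2 fold change was -1.34 (SE 0.22, edgeR FDR 0.00175). The call against control did not hold at an FDR of 0.05 without control 3 (-1.08, FDR 0.0559), without trametinib 2 (-1.502, FDR 0.0522) or without trametinib 3 (-1.47, FDR 0.0591).

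Aplnr, the receptor, had few and uneven counts. Its counts were 12, 9 and 19 in control (1.02, 0.911 and 1.92 CPM) and 7, 25 and 10 with trametinib (0.634, 2.90 and 0.836 CPM). Trametinib 2, the tumor with the highest Aplnr, was also that with the most muscle RNA. It was highest as well in summed fibroblast markers (37040 CPM) and in pericyte and smooth muscle markers (1032 CPM). Control 2, also rich in muscle RNA, had the lowest Aplnr of the control tumors, 0.911 CPM. Without trametinib 2 the log2 fold change of trametinib against control was -0.79. In cediranib treated tumors Aplnr stood at 1.496, 2.08 and 0.478 CPM. The combination had the lowest mean, from 0.202, 0.0906 and 0.648 CPM (2, 1 and 7 counts), all below the control range but overlapping both single drugs. No comparison passed for Aplnr in the quasi-likelihood test after the low-count filter. The log2 fold change was 0.15 (interval -1.41 to 1.72) for trametinib against control, -1.98 (interval -3.78 to -0.18, edgeR FDR 0.146) for the combination against control and -2.14 (interval -3.93 to -0.34, FDR 0.203) for the combination against trametinib. Without the filter both of the latter were called (-1.97, edgeR FDR 0.0436, and -2.10, FDR 0.039). With the filter the combination against cediranib gave -2.06 (interval -3.86 to -0.27, edgeR FDR 0.155). The value against control was -3.06 without combination 3, and the value against trametinib was -1.20 without trametinib 2 and -3.20 without combination 3. Of 9 other genes of the apelin system, among them the G proteins and arrestins of its receptor, 8 passed the filter and 0 were called in any comparison by edgeR's quasi-likelihood test. With trametinib against control 2 of the 8 passed the FDR alone, Furin, an enzyme that cleaves precursor proteins (log2 fold change -0.85, SE 0.15, edgeR FDR 0.00698), and Arrb2, an arrestin (-0.51, SE 0.13, FDR 0.0352). The second ligand of the receptor, Apela, had 0 counts in all 12 libraries. The median log2 fold change of the 8 was -0.32 with trametinib, where the median of all genes tested was 0.01.

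Rgcc moved the other way. It measured 1.36, 0.405 and 1.21 CPM in control tumors and 2.99, 8.60 and 6.77 CPM with trametinib, from 4 to 16 counts against 33 to 81. Cediranib treated tumors, at 0.299, 1.70 and 0.382 CPM, covered the control range, and combination treated tumors, at 2.72, 4.26 and 5.93 CPM, covered part of the trametinib range. Every tumor given trametinib lay above every tumor without it. Rgcc was called higher with trametinib against control (log2 fold change 2.59, SE 0.62, edgeR FDR 0.0301), a 6.03-fold difference, and with the combination against cediranib (2.41, SE 0.64, FDR 0.0415). The combination against control missed the FDR (2.09, SE 0.62, edgeR FDR 0.0529). Between combination and trametinib the difference was -0.50 (interval -1.71 to 0.71), and between cediranib and control -0.32 (interval -1.83 to 1.19). Over all 6 trametinib tumors against the other 6 the log2 fold change was 2.50 (SE 0.45, edgeR FDR 0.00266). The 3-against-3 calls rested on few tumors. With trametinib against control the call was lost without any 1 of the 3 control tumors (FDR 0.0549, 0.0997 and 0.0797), trametinib 2 (FDR 0.0924) or trametinib 3 (FDR 0.0781), and without both muscle-rich libraries, control 2 and trametinib 2, the value was 1.91 (FDR 0.216). Against cediranib it was lost without cediranib 1 (2.04, FDR 0.126), cediranib 3 (2.10, FDR 0.115) or combination 1, 2 or 3 (FDR 0.0523, 0.0863 and 0.119), and without cediranib 2 it was 3.61 (FDR 0.0152).

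**Figure D2:**
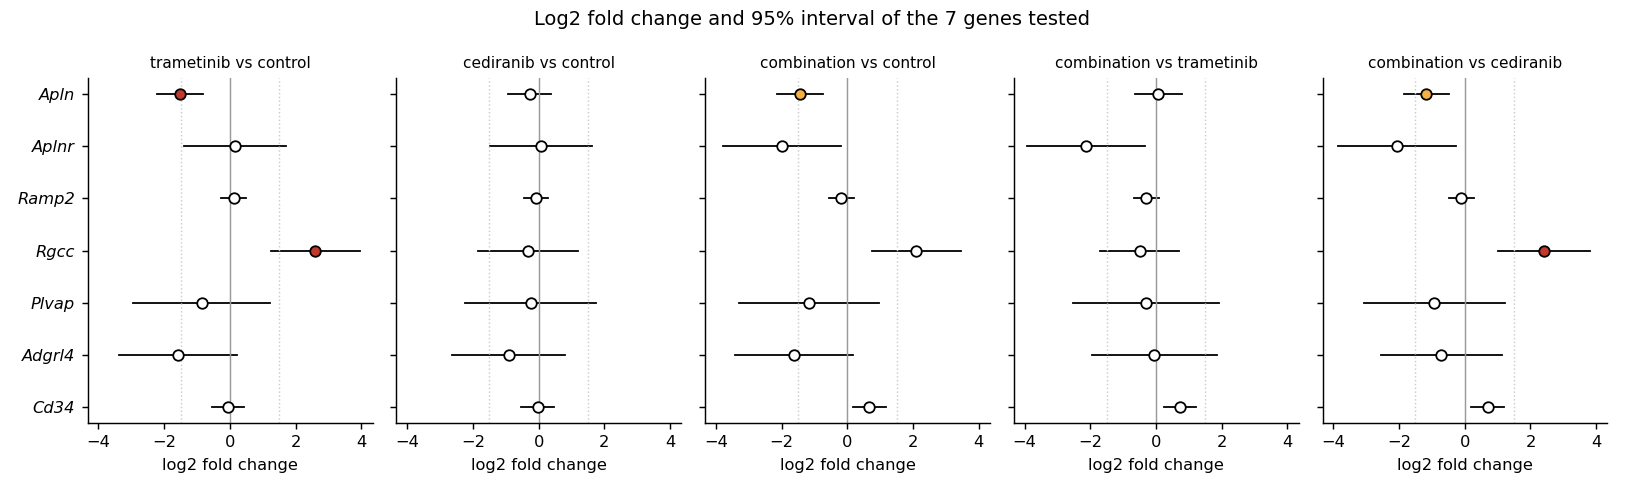
Log2 fold change (first group over second, horizontal axis) with its 95% interval for the 7 genes that passed the filter, in 5 comparisons. Red points passed an FDR of 0.05 and an absolute log2 fold change of 1.5 (dotted lines), orange points the FDR alone. Apln lay at -1.51 and Rgcc at 2.59 for trametinib against control, and no point was colored for cediranib against control.

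Trametinib against control thus called 2 of the 7 genes, where 2.40% of all genes tested were called, and the same 2 passed the FDR alone, where 6.12% of all genes passed. Groups did not overlap for 3 genes, Apln, Rgcc and Adgrl4, against 25.8% of all genes. For cediranib against control 0 of 7 were called in edgeR's quasi-likelihood test, 0 had an unadjusted p under 0.05, and DESeq2 and edgeR's likelihood ratio test also called 0. The background there was 0% of all genes called (557 genes at an unadjusted p under 0.05, 10 called by DESeq2), and 0 of 7 genes had groups that did not overlap, against 7.76% of all genes. The combination against control called 0 of 7 in the quasi-likelihood test, with 4 at an unadjusted p under 0.05 and 1, Rgcc, called by DESeq2 and by the likelihood ratio test, beside a background of 3.61%. There 1 gene, Apln, passed the FDR alone against 9.98% of all genes, and 4 had groups that did not overlap against 31.3%. The combination against trametinib called 0 of 7 in the quasi-likelihood test and 0 in DESeq2 or the likelihood ratio test, with 2 at an unadjusted p under 0.05. The background was 0.675% called, and 1 gene, Cd34, had groups that did not overlap, against 24.2%. The combination against cediranib called 1 of 7, where 2.45% of all genes were called. There 2 passed the FDR alone against 7.68% of all genes, and 3 had groups that did not overlap against 28.4%. The interaction called 0 of 7 in the quasi-likelihood test, with 1 at an unadjusted p under 0.05 and 0 by DESeq2 or the likelihood ratio test, beside a background of 0% (909 genes at an unadjusted p under 0.05, 28 called by DESeq2). All trametinib tumors against all others called 1 of 7 beside 3.30%, passed 2 at the FDR alone beside 16.7%, and had 2 genes whose groups did not overlap beside 7.99%.

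Apln and Rgcc were also set against the RNA of pan-endothelial markers, which SVR cells and host vessels can both contribute. The mean of the 13 pan-endothelial markers was lower with trametinib than in control, by a log2 difference of -1.502 (exact permutation p = 0.1, two-sided, the smallest that 3 against 3 tumors allow). By edgeR 6 of the 13 were called lower with trametinib, Pecam1, Cdh5, Tie1, Rasip1, Nos3 and Flt1, and 7 with the combination. Measured against that mean, Apln stood at -2.13 to -1.29 log2 units in control and at -1.72 to -1.30 with trametinib, ranges that overlapped, with a difference of 0.17 (exact permutation p = 0.7, adjusted p 0.817 over 42 such tests). In the combination Apln stood at -1.24 to -0.66, above every control tumor (difference 0.70, exact permutation p = 0.1, adjusted p 0.247) and every trametinib tumor (difference 0.54, exact permutation p = 0.1, adjusted p 0.247). With the marker mean as a term in the model, the Apln difference was -0.83 (edgeR FDR 0.461). That mean separated the tumors given trametinib from all others, at 2.67 log2 CPM at most against 2.81 at least. The model therefore cannot tell the drug from the marker level, and the lost FDR decides nothing. Rgcc stood at -4.66 to -2.81 in control and at -0.98 to 0.61 with trametinib on the same scale, and over the 6 trametinib tumors against the other 6 the difference was 3.89 (exact permutation p = 0.00216, the smallest that 6 against 6 tumors allow, adjusted p 0.0455). Every tumor given trametinib already lay above all others in Rgcc and below all others in the marker mean. This p could therefore only be the smallest, and it adds no support. Ramp2, whose own level differed by little, gave the same p with a difference of 1.495, as the marker mean itself differed by -1.48 between these groups. With the marker mean in the model, and with the same limit, Rgcc was 3.44 higher with trametinib than in control, at an edgeR FDR of 0.109.

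**Figure D3:**
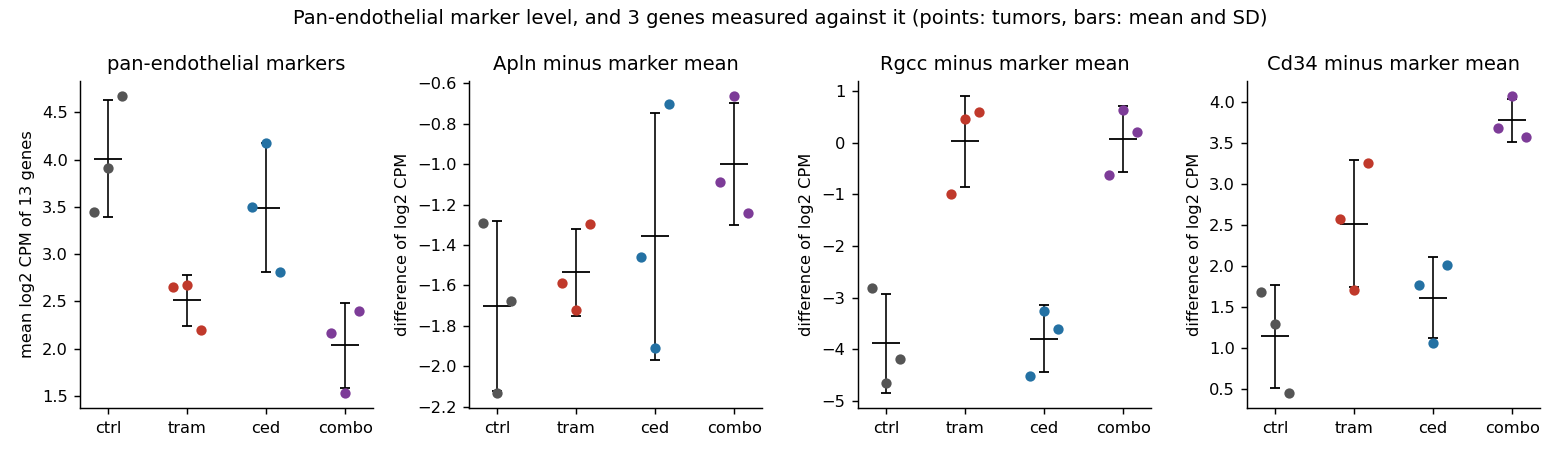
Left, mean log2 CPM of 13 pan-endothelial markers per tumor. The other panels give the log2 CPM of Apln, Rgcc and Cd34 minus that mean, with points for tumors, bars for the mean and SD of 3 tumors, and axes that do not start at 0. The Apln values of control and trametinib overlapped, whereas Rgcc stood at -4.66 to -2.81 in control and at -0.98 to 0.61 with trametinib.

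Esm1, the tip cell marker of the set, was barely detected and did not pass the filter. It had 8, 4 and 1 counts in the control tumors, 1, 1 and 0 with trametinib, 1, 1 and 0 with cediranib and 0, 4 and 0 with the combination. It reached 0.680 CPM at most. Every cediranib value lay below every control value, by 0.0997 against 0.101 CPM at the closest, and the other drug groups overlapped control. Exact permutation tests of its CPM against control gave p = 0.2 for trametinib, 0.1 for cediranib and 0.2 for the combination, where 0.1 is the smallest that 3 against 3 tumors allow, and adjusted p of at least 0.514 over 18 tests of Esm1, Ramp3 and Emcn. Other genes of tip cells and sprouting were better covered, with 19 of 21 past the filter. With trametinib against control 3 of them were called lower (edgeR), Dll4, the Notch ligand of tip cells, Plaur, the urokinase receptor, and Mcam, an adhesion molecule, and 0 were called higher. Nrp2, a co-receptor for VEGF, passed the FDR alone in the other direction, at 199 to 254 CPM in control and 393 to 450 CPM with trametinib (log2 fold change 0.86, SE 0.16, edgeR FDR 0.00841). The summed level of the 21 genes was 1285 to 1972 CPM in control and 1159 to 1453 CPM with trametinib. Dll4 was at 2.38, 4.65 and 15.6 CPM in control and at 0.634, 1.28 and 0.752 CPM with trametinib (log2 fold change -3.09, SE 0.80, edgeR FDR 0.0423). In the combination against control 8 of the 19 were called lower and 0 higher, with the smallest FDRs for Igfbp3, Pdgfb and Dll4. Igfbp3, which binds insulin-like growth factors, was also lower in the combination than with trametinib alone (log2 fold change -1.91, SE 0.37, edgeR FDR 0.0402), at 2.72 to 4.84 CPM against 11.3 to 14.98 CPM. With cediranib alone 0 of the 19 were called. The median log2 fold change over the 19 was -1.13 with trametinib, -0.37 with cediranib and -1.90 with the combination, beside medians of 0.01, -0.00268 and 0.00155 for all genes tested. For the 13 pan-endothelial markers these medians were -1.90, -0.48 and -2.37, so the lower level was not particular to the sprouting genes. Angpt2, another product of tip cells, was at 0.898 CPM at most.

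Ramp2 differed by little between treatments. It measured 37.6, 41.6 and 49.9 CPM in control, 45.9, 39.8 and 54.0 CPM with trametinib, 38.5, 49.8 and 33.8 CPM with cediranib and 37.2, 34.9 and 41.8 CPM with the combination, ranges that all overlapped. The log2 fold change was 0.12 (interval -0.26 to 0.49) for trametinib and -0.18 (interval -0.56 to 0.20) for the combination against control. This count is uncertain, because Vps25, a subunit of the ESCRT-II sorting complex with 67.2% of its bases inside annotated exons of Ramp2, stood at 30.9 to 44.0 CPM. In every library the Ramp2 count was 1.08 to 1.51 times that of Vps25, an excess of 30 to 177 counts out of 343 to 646. Across the 12 libraries the log2 levels of the pair had a Pearson r of 0.73, given as a description of genes that can share reads. The excess of Ramp2 over Vps25 was 54, 102 and 145 counts in control, 76, 59 and 120 with trametinib, 68, 177 and 30 with cediranib and 39, 30 and 56 with the combination, but it is not a measure of Ramp2 alone.

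**Figure D4:**
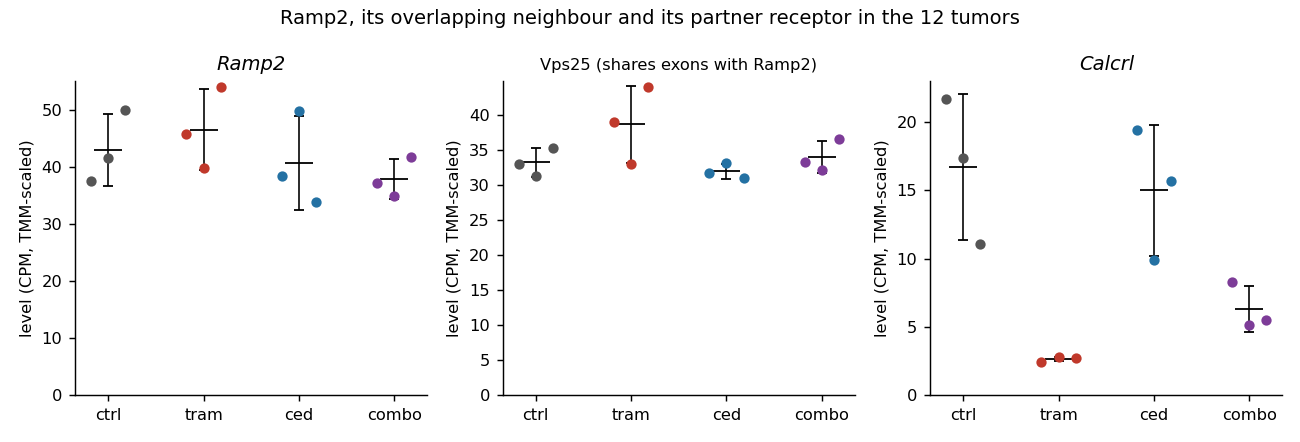
Level in CPM (TMM-scaled, axes from 0) of Ramp2, of its overlapping neighbour Vps25 and of Calcrl in each tumor, with the mean and SD of 3 tumors. Ramp2 and Vps25 stayed within 33.8 to 54.0 and 30.9 to 44.0 CPM, while Calcrl was at 2.45 to 2.79 CPM with trametinib and 11.1 to 21.7 CPM in control.

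The receptor that these accessory proteins serve was lower with trametinib. Calcrl measured 21.7, 17.4 and 11.1 CPM in control, 2.45, 2.79 and 2.67 CPM with trametinib, 19.4, 9.91 and 15.7 CPM with cediranib and 8.27, 5.16 and 5.46 CPM with the combination. Its log2 fold change with trametinib against control was -2.66 (SE 0.32, edgeR FDR 0.000725), the only one of 4 other genes of the adrenomedullin system past the filter that was called. Adm, the ligand, was at 1.45 CPM at most, and Ramp1 was at 0 in 9 of 12 libraries. Ramp3, the other accessory gene for adrenomedullin, had 2, 0 and 5 counts in control, 1, 1 and 2 with trametinib, 1, 0 and 0 with cediranib and 0, 0 and 1 with the combination. At 0.504 CPM or less in every tumor it did not pass the filter, and differences between treatments were not detectable at this depth.

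Plvap and Adgrl4 were low and varied widely within each treatment. Plvap measured 0.425, 0.810 and 2.22 CPM in control, 0.544, 1.05 and 0.334 CPM with trametinib, 0.698, 1.89 and 0.287 CPM with cediranib and 0.403, 1.09 and 0 CPM with the combination. Its log2 fold change was -0.86 (interval -2.94 to 1.23) for trametinib and -1.17 (interval -3.29 to 0.95) for the combination against control. Adgrl4 measured 1.11, 1.11 and 3.93 CPM in control, 1.09, 0.232 and 0.669 CPM with trametinib, 0.199, 1.89 and 1.15 CPM with cediranib and 0.202, 0.544 and 1.20 CPM with the combination. Every trametinib tumor lay below every control tumor, by a narrow gap, and the log2 fold change of -1.57 (SE 0.82, interval -3.36 to 0.22) did not pass (edgeR FDR 0.307). For the combination against control it was -1.62 (interval -3.42 to 0.17, edgeR FDR 0.23). The tumor control 3 held the highest Plvap and Adgrl4 of the study and the highest mean of the pan-endothelial markers, 4.67 log2 CPM. Without it the Adgrl4 value was -0.70 for trametinib and -0.75 for the combination against control, and the Plvap value for the combination was -0.28. Leaving out each tumor gave -2.41 to -0.75 for Adgrl4 and -2.47 to -0.28 for Plvap in the combination against control. Among 7 other adhesion G protein-coupled receptor genes, all tested, 1 was called. Adgrg1, a receptor of cell adhesion also found on many other cells, fell from 31.7 to 38.8 CPM in control to 9.78 to 11.96 CPM with trametinib (log2 fold change -1.76, SE 0.15, edgeR FDR 9.46e-05).

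Emcn, the endomucin gene of veins and capillaries, had 1, 2 and 3 counts in control, 0, 0 and 0 with trametinib, 1, 2 and 1 with cediranib and 0, 0 and 2 with the combination. The 0 counts of the 3 trametinib libraries allow up to 0.0949 CPM over the group, for counting error only, beside 0.190 CPM for the summed control counts. The gene did not pass the filter. Its CPM under trametinib was set against control (exact permutation p = 0.1, adjusted p 0.514), and over all 6 trametinib tumors against the other 6 the exact permutation p was 0.0303 (adjusted p 0.514). Without the filter the edgeR FDR was 0.338 and 0.28 in these comparisons. Capillary markers were low too, with a summed level of 4 genes at 0.287 to 2.67 CPM across the 12 tumors. Of the other sialomucin genes 3 of 6 passed the filter and 1, Podxl, was called. Podxl, a relative of Cd34 on endothelium, was at 47.8 to 51.7 CPM in control, 11.0 to 16.5 CPM with trametinib and 4.89 to 19.2 CPM with the combination (log2 fold change -1.78 and -2.07 against control, SE 0.37 for both, edgeR FDR 0.014 and 0.00732).

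Cd34 did not follow its relative Podxl. It measured 34.9, 36.5 and 34.6 CPM in control, 37.3, 20.7 and 43.7 CPM with trametinib and 38.2, 37.4 and 28.1 CPM with cediranib, and these ranges overlapped. In the combination it measured 57.4, 48.5 and 63.0 CPM, above all 9 other tumors. The log2 fold change of the combination was 0.67 against control (interval 0.17 to 1.17, edgeR FDR 0.0833), 0.73 against trametinib (interval 0.23 to 1.23, FDR 0.133) and 0.70 against cediranib (interval 0.20 to 1.20, FDR 0.0856), so none passed the FDR in the quasi-likelihood test. By DESeq2 all 3 passed it (FDR 0.0356, 0.0411 and 0.0297), as they did by edgeR without the low-count filter (FDR 0.0063, 0.00319 and 0.00411), though none reached the minimum fold. With trametinib against control it was -0.06 (interval -0.56 to 0.44), and the interaction was 0.76 (interval 0.05 to 1.46, edgeR FDR 0.695). Relative to the mean of the pan-endothelial markers Cd34 was 2.64 log2 units higher in the combination than in control (exact permutation p = 0.1, the smallest that 3 against 3 tumors allow, adjusted p 0.247). The marker mean itself differed by -1.98 between these groups, while the log2 fold change of Cd34 alone was 0.67.

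Markers of other cell types that make Cd34, and of epidermis, were compared in the same tumors. Krt15, a keratin of basal epidermis and of the hair follicle bulge, was at 76.7, 51.2 and 105 CPM in the combination, 38.6, 0.0944 and 33.1 CPM with cediranib, 9.95, 0.405 and 1.51 CPM in control and 0.272, 0 and 0 CPM with trametinib. Of 5 bulge genes 2, Lhx2 and Krt15, were called higher in the combination against control. Sox9 went the other way, at 142, 106 and 94.3 CPM in control and 52.2, 45.6 and 44.7 CPM in the combination. Over the 5 genes, 3 log2 fold changes were above 0 and 2 below. The summed level of the 5 was 105 to 160 CPM in the combination against 103 to 158 CPM in control. Of 15 epidermal markers tested, 5 were called higher in the combination against control, and their list summed to 298 to 457 CPM against 21.8 to 77.5 CPM. Cediranib 1 and 3 had raised epidermal markers as well but Cd34 at 38.2 and 28.1 CPM. Of 8 fibroblast markers, all detected in every group, 1 was called higher in the combination against control, with a summed level of 3125 to 5921 CPM against 2221 to 21110 CPM. The 4 blood progenitor and leukocyte genes summed to 74.7 to 81.6 CPM in the combination and 98.3 to 107 CPM in control and each of them had counts in at least 1 tumor of both groups. With the epidermal score as a term in the model the Cd34 difference between combination and control was 0.83 (edgeR FDR 0.399). That score stood at 2.89 or more in the combination and 1.33 or less in control, so the model cannot tell score from treatment. The part of the other cell types in the Cd34 difference was not tested. Gm16897, the antisense gene that overlaps the end of Cd34, followed it with a Pearson r of 0.94 over the 12 libraries and a count 4.56 to 7.04 times lower.

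**Figure D5:**
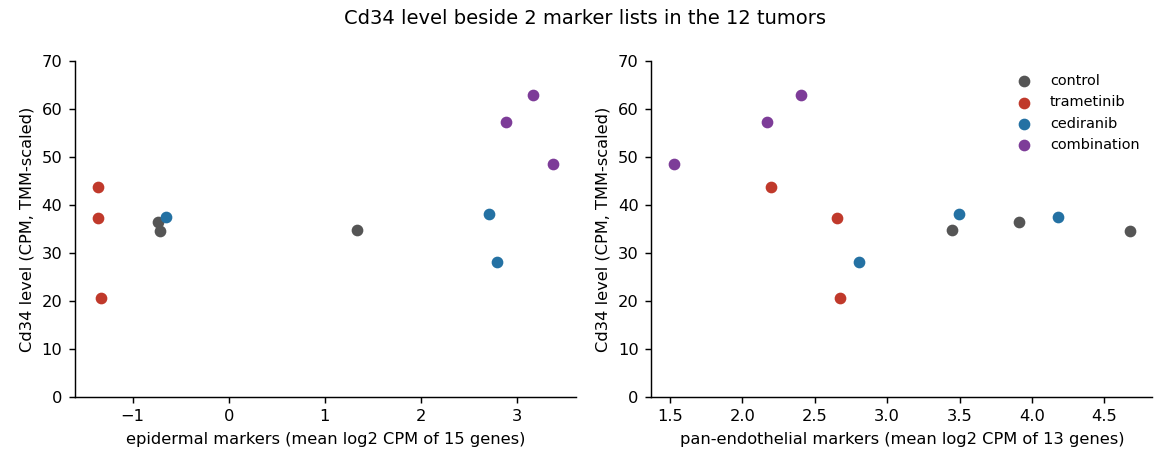
Cd34 level in CPM (axis from 0) against the mean log2 CPM of 15 epidermal markers (left) and 13 pan-endothelial markers (right), 1 point per tumor, colored by treatment. The 3 combination tumors combined the highest Cd34 (48.5 to 63.0 CPM) with 2.89 to 3.38 on the epidermal axis and 1.53 to 2.40 on the endothelial axis, while cediranib 1 and 3 had 2.72 and 2.80 on the epidermal axis with Cd34 at 38.2 and 28.1 CPM.

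Genes whose pattern over the 12 tumors was nearest to each member were found by the root mean square difference of mean-centred log2 CPM. For Apln they were A430057M04Rik (0.239 log2 units), Trib1 (0.240) and Soat1 (0.260), where the median over all tested genes was 0.751. Rgcc had more distant neighbours, Mtss1l (0.526), Gm16350 (0.582) and Rin2 (0.590), against a median of 1.43. For Cd34 they were Klhl26 (0.173), its overlapping antisense gene Gm16897 (0.195) and Haghl (0.196), and for Aplnr they were Adamts2 (0.414), Dysf (0.444) and Ptprb (0.487). Ramp2, which varied little, was nearest to 4933408J17Rik (0.117), Sumo2 (0.118) and Myl12b (0.129). Adgrl4 was nearest to Stc1 (0.458), Rtn4rl2 (0.480) and Ppp1r3b (0.558), and Plvap to Olfr77 (0.514), Msr1 (0.521) and Gm7808 (0.541).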

How the data were processed

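RNA of whole SVR xenograft tumors was captured with exome probes (TruSeq RNA Exome) and sequenced for 12 tumors, grouped by their treatment labels, 3 per group. The deposited table holds raw gene counts that the authors had not normalized, made with bcl2fastq 1.8.4, STAR 2.7.1a on GRCm38 and featureCounts 1.6.0. The sources used here do not give the annotation release, the strand setting or the handling of reads on several genes. Exon overlaps were taken from GENCODE M21, which gave the same lengths for the 10 genes.

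Counts were filtered (filterByExpr, minimum count 10, minimum total 15), scaled with TMM and tested by quasi-likelihood (edgeR 4.0.16, R 4.3.3) in 1 fit to the 12 libraries. The FDR is Benjamini-Hochberg over 12897 genes, and a call also needed an absolute log2 fold change of 1.5, the threshold of the study. Standard errors are the absolute log2 fold change over the square root of F, and intervals cover 95%. Marker means and exact permutation tests used log2 CPM with a prior count of 2 (CPM for the members below the filter), with p-values adjusted by Benjamini-Hochberg. A limit for 0 counts is 3 counts. The procedure was run on simulated counts, where calls were scored by the FDR alone and not with the fold threshold. At these depths 3 counts in a library are 0.251 to 0.348 CPM.

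Every gene of the set was described, though not every comparison was given a value. From each other list up to 3 called genes with the smallest FDR were named, with further genes chosen after their values were seen. The genes and lists were chosen with earlier results of these data known. Alternatives were RLE factors, library totals alone, no filter, the likelihood ratio test, DESeq2 1.42.0, only the groups compared, a replicate block, an epidermal or endothelial score as a term, and leaving out each tumor. The joint comparison of 6 with 6 tumors, the FDR alone and the removal of muscle-rich libraries were added after the data were seen. Replicate numbers were checked as pairs: the deviations of same-numbered tumors had correlations of -0.219 to 0.356, with 3 of 18 above 0.1, so tumors were not paired.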

Additional observations from a re-analysis of the deposited data

How the results depend on the processing

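The call of Rgcc over all 6 trametinib tumors was met in 20 of 21 alternatives, with log2 fold changes of 2.17 to 3.39, and was lost (FDR 0.0799) with the endothelial score in the model. The Apln call for trametinib against control was met in 10 of 16 alternatives (-1.75 to -0.83) and that of Rgcc in 8 of 16 (1.91 to 3.44), with the direction kept in all of them. The cause of the lost calls was not tested. Both scores separated some of the groups compared, so a call lost with a score in the model cannot tell treatment from score. Aplnr, Plvap and Adgrl4 had at most 39 counts in a library, and whether depth limited their calls was not tested.

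The number of the 7 genes called for trametinib against control, 2, was 1 with only the groups compared, 1 with the epidermal score in the model, 0 with the endothelial score, 1 without the muscle-rich libraries and 0 to 2 when each tumor was left out. For the combination against control, 0, it was 1 with library totals alone, the likelihood ratio test, DESeq2, only the groups compared, the muscle-rich libraries left out or the FDR alone, 2 without the low-count filter and 0 to 1 when each tumor was left out. For the combination against cediranib, 1, it was 2 without the filter or with the FDR alone, 0 with only the groups compared or with either score and 0 to 1 when each tumor was left out. It was 1 for the combination against trametinib without the filter, and over all trametinib tumors 0 with the endothelial score and 2 with the FDR alone.

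With replicate number as a block, 1 of the 7 was called for trametinib against control, since Apln was at -1.47, and no other count of calls changed. The numbers did not pair the tumors.

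Signs turned only for values that had not passed. With the epidermal score in the model they turned for trametinib against control in Aplnr (-0.22) and Ramp2 (-0.059), for the combination against control in Plvap (0.91) and Ramp2 (0.26), and for the combination against trametinib in Rgcc (0.96). With the endothelial score they turned for trametinib against control in Plvap (1.02), Adgrl4 (0.089) and Cd34 (0.10), and for the combination against control in Aplnr (0.67), Plvap (1.48), Ramp2 (0.38) and Adgrl4 (0.45). Without the muscle-rich libraries Aplnr was -0.98 and Cd34 0.22 for trametinib against control. Leaving out each tumor gave -0.79 to 0.55 for Aplnr, -1.36 to 0.031 for Plvap, -0.0048 to 0.24 for Ramp2 and -0.28 to 0.20 for Cd34 for trametinib against control. It gave -0.51 to 0.17 for Apln and -1.52 to 0.058 for Rgcc for cediranib against control, and -0.10 to 0.58 for the Apln interaction.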
